A study of Mus musculus with 28 samples.

Results

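Microglia identity genes were followed through every group of a mouse cerebral cortex study in which a gene was deleted in the astrocyte lineage. The genes are P2ry12, Tmem119, Cx3cr1, Csf1r, Aif1, Trem2, Tyrobp and Cd68. They were matched by symbol to Ensembl identifiers, and they make up 8 of the 53342 identifiers in the count tables. The rule that names them uses no measured value, although they were chosen with earlier results of these data known. The first 4 are receptors or surface proteins of homeostatic microglia, and the other 4 are present in resting microglia and are widely used as markers of the activated state.

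The conditional knockout mice (cKO) carried loxP/loxP alleles of the targeted gene together with mGFAP-Cre, a driver active in astrocytes and their precursors. The controls (Ctrl) of the bulk RNA-Seq were sex-matched littermates, loxP/loxP or loxP/+, listed without Cre, and all mice were on the C57BL/6J background. Bulk RNA-Seq covered 4 Ctrl and 4 cKO cortices at postnatal day 24 (P24) and the same numbers at P17, with 1 mouse per library. TRAP-Seq at P24 covered 3 Ctrl and 3 cKO mice that expressed EGFP-Rpl10a, a tagged ribosomal protein, under mGFAP-Cre. Each TRAP mouse gave an Input library of whole-cortex RNA and an IP library of RNA pulled down with the tagged ribosomes. A Ctrl mouse with the tag must therefore also have carried the Cre driver. The TRAP Ctrl mice are likewise listed as loxP/loxP or loxP/+, and which alleles they carried beside Cre is not stated. The TRAP comparisons between genotypes therefore set cKO mice against Ctrl mice of unclear allele state.

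Microglia are the resident macrophages of the brain, distinct in origin from neurons, astrocytes and oligodendrocytes. They depend on signals through Csf1r, whose ligands are the products of Csf1 and Il34, and sense neurons through Cx3cr1, whose ligand is made from Cx3cl1. Injury or degeneration typically shifts them from a homeostatic program, marked by P2ry12 and Tmem119, to a phagocytic and lysosomal program that runs through the receptor Trem2 and its signaling adaptor Tyrobp. In bulk tissue, fewer cells of a type and less RNA of that type per cell cannot be told apart.

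In the GRCm38 annotation the genes lay on separate chromosomes, except Aif1 and Trem2. P2ry12 (ENSMUSG00000036353), an ADP receptor, spanned chr3:59216272-59262871 on the minus strand, and its exons overlapped those of Med12l on the opposite strand. Tmem119 (ENSMUSG00000054675), a transmembrane protein of microglia, spanned chr5:113793729-113800516. Cx3cr1 (ENSMUSG00000052336), the fractalkine receptor, was annotated over chr9:119901616-120069879, a span that held 9 other genes, of which only the antisense gene Gm33858 shared exonic bases. Csf1r (ENSMUSG00000024621) lay on chromosome 18, with exons that overlapped those of Hmgxb3 on the opposite strand. Since the strand setting of the counting is not given in the sources used here, reads of these overlapping exons cannot be told apart.

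Aif1 (ENSMUSG00000024397), which encodes the actin-binding protein IBA1, spanned chr17:35170991-35176068, and Trem2 (ENSMUSG00000023992), a lipid-sensing receptor, chr17:48346401-48354147. Tyrobp (ENSMUSG00000030579), the DAP12 adaptor, spanned chr7:30413760-30417585. Cd68 (ENSMUSG00000018774), a lysosomal membrane glycoprotein of phagocytes, spanned chr11:69664213-69666153. None of these 4 overlapped another annotated gene.

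Promoter windows of 300 bases were found in RefSeq (GRCm38.p6) for 5 of the 8 genes, P2ry12, Cx3cr1, Aif1, Trem2 and Cd68. They were searched on both strands for GAGGAAGT, the letters recognized by the myeloid factor PU.1, and for its core GAGGAA, which is contained in it. The longer motif was in 0 of the 5 windows and in 3.2% of all 32851 promoter windows of the table. The core was in 3 of the 5 and in 28.3% of all windows. Cd68 is shown because it was the gene with a called genotype difference, Trem2 because it had the lowest level per length in the IP libraries, and P2ry12 as a homeostatic gene for comparison. The windows lie at chr11:69666121-69666420 on the minus strand for Cd68, chr17:48346151-48346450 on the plus strand for Trem2 and chr3:59262936-59263235 on the minus strand for P2ry12. Each is written 5′ to 3′ along its gene, with GAGGAA or its complement in capitals.
Cd68: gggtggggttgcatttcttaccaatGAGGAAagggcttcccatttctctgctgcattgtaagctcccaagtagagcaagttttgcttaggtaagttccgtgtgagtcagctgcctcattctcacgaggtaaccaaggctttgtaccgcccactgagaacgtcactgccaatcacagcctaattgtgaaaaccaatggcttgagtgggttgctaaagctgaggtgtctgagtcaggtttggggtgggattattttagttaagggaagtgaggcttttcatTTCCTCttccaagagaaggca
Trem2: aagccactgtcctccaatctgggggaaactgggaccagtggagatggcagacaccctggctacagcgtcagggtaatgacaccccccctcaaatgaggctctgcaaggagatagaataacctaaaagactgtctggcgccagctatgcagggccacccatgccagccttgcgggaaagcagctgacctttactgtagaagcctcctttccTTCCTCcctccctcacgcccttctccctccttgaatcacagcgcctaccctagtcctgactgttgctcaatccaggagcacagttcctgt
P2ry12: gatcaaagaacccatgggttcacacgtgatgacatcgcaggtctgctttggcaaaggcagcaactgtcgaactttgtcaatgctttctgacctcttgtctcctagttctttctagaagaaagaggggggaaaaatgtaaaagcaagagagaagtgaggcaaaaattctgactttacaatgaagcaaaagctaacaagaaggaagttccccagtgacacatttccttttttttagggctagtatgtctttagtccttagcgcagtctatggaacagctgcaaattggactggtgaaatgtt
Cd68 held a match on either strand, the second of them 29 bases past the start site. The match in the Trem2 window began 40 bases before the start site, and P2ry12 had no match in its window. Matches are descriptions of letters and not binding sites.

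Total counts ranged from 12603888 to 14575306 per P24 bulk library, from 8855488 to 11454729 at P17 and from 18433087 to 27242445 in TRAP-Seq. Levels are given as CPM, the counts relative to library size (scaled by TMM factors), and 3 counts corresponded to 0.202 to 0.239 CPM, 0.263 to 0.341 CPM and 0.106 to 0.167 CPM in the 3 experiments. All 8 genes passed the filter on low counts in every comparison. Replicates of a group differed by more than counting noise in all 36 pairs. The largest differences were those of Input cKO replicate 1. Its chi-square per degree of freedom was 85.2 against Input cKO replicate 2 and 89.8 against replicate 3, while replicates 2 and 3 had 8.99. As a check of the labels, all 8 astrocyte markers were higher in IP than in Input in Ctrl and in cKO mice, and 7 of 8 neuron markers were lower. Among the bulk libraries, P24 cKO replicate 1 had the lowest average of the 8 genes relative to its group, and bulk results at P24 that changed without it are given both ways.

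Cx3cr1 was the most abundant microglia gene per length in every group. In P24 Ctrl cortex its mean was 26.7 ± 0.79 CPM per kilobase of exonic length (SD, n = 4), followed by Csf1r at 14.8 ± 1.36 and P2ry12 at 12.5 ± 0.87. Tyrobp at 7.21 ± 1.79, Tmem119 at 6.01 ± 0.32 and Cd68 at 5.77 ± 0.88 CPM per kilobase formed a middle group. Trem2 at 1.23 ± 0.089 and Aif1 at 0.986 ± 0.31 CPM per kilobase were lowest. Neighbors in this order overlapped between mice within each of these groupings, that is Csf1r with P2ry12, the middle 3 genes with one another, and Trem2 with Aif1. Reverse transcription was primed with oligo-dT, and whether reads covered the exons evenly was not tested. At P17 the Ctrl means per kilobase ran from 27.5 for Cx3cr1 through 15.4 for Csf1r and 12.97 for P2ry12 to 1.304 for Aif1.

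**Figure D1:**
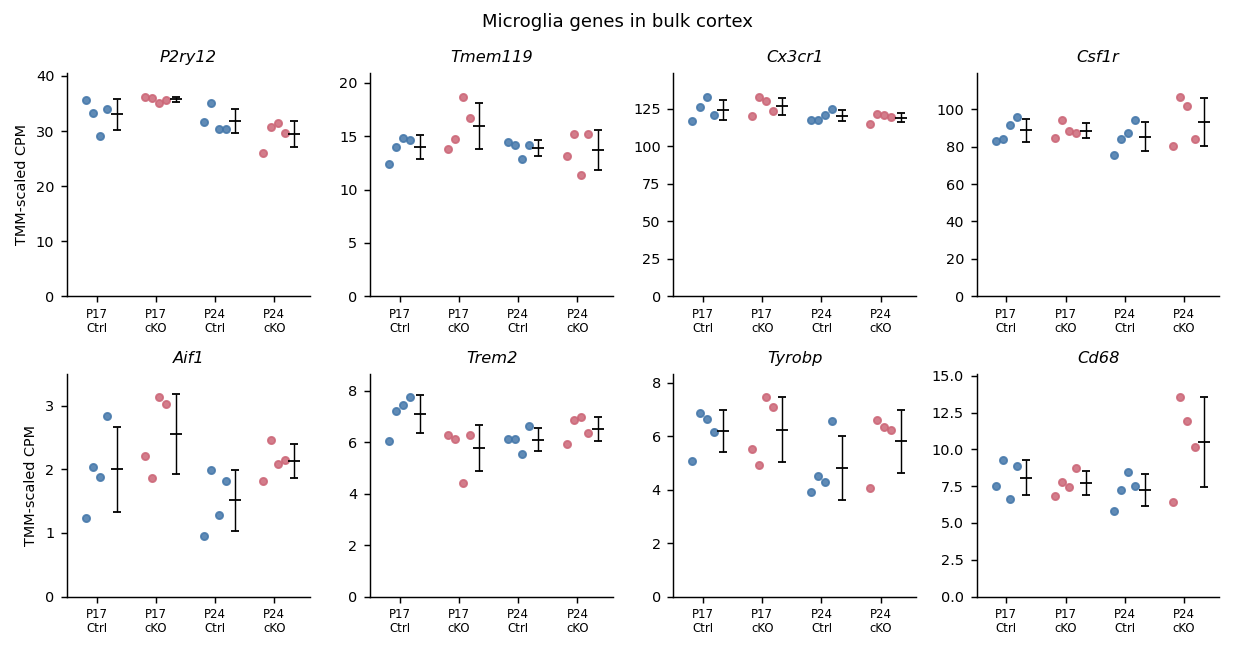
TMM-scaled CPM of each microglia gene (vertical axis, from 0) in the P17 and P24 bulk cortex libraries, with 1 point per mouse, Ctrl in blue and cKO in red, and the mean ± SD in black (n = 4). Ctrl and cKO mice overlapped for all 8 genes at both ages, and 3 of the 4 P24 cKO mice had Cd68 above the highest Ctrl mouse.

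The first question was whether the homeostatic genes changed in the knockout cortex at P24, and no change was detected. Cx3cr1 was 118, 118, 121 and 125 CPM in the 4 Ctrl mice and 115, 122, 120.5 and 119 CPM in the 4 cKO mice. These values interleaved, and the log2 fold change was -0.01 (SE 0.05, adjusted p = 0.933, edgeR quasi-likelihood test), with a 95% interval of 0.923-fold to 1.06-fold. P2ry12 was 31.6, 35.04, 30.4 and 30.3 CPM in Ctrl mice and 26.1, 30.7, 31.5 and 29.7 CPM in cKO mice. The lowest value was that of cKO replicate 1, the groups overlapped, and the log2 fold change was -0.11 (SE 0.07, adjusted p = 0.554).

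Tmem119 ranged from 12.8 to 14.4 CPM in Ctrl and from 11.3 to 15.2 CPM in cKO mice (log2 fold change -0.02, SE 0.10, adjusted p = 0.957). Csf1r, the survival receptor, ranged from 75.5 to 94.4 CPM in Ctrl and from 80.3 to 106.5 CPM in cKO mice (log2 fold change 0.12, SE 0.10, adjusted p = 0.643). The 95% intervals of these 4 genes lay between 0.832-fold and 1.26-fold.

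The 4 genes tied to activation had positive log2 fold changes at P24, but none passed the test. Cd68 was 5.81, 7.21, 8.48 and 7.51 CPM in Ctrl mice and 6.41, 13.5, 11.96 and 10.2 CPM in cKO mice. Of the cKO mice, 3 were above every Ctrl mouse and replicate 1 was below 3 of them, with a log2 fold change of 0.53 (SE 0.20, 95% interval 1.07-fold to 1.95-fold, adjusted p = 0.27). Without cKO replicate 1 the log2 fold change of Cd68 was 0.71 with an adjusted p of 0.00942, a fit in which 950 of 22820 genes were called.

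Tyrobp was 3.898, 4.49, 4.28 and 6.56 CPM in Ctrl mice and 4.05, 6.60, 6.33 and 6.22 CPM in cKO mice. Ctrl replicate 4 lay with the 3 higher cKO mice and cKO replicate 1 with the 3 lower Ctrl mice (log2 fold change 0.26, SE 0.19, adjusted p = 0.621). Trem2, its partner receptor, ranged from 5.55 to 6.63 CPM in Ctrl and from 5.93 to 6.96 CPM in cKO mice (log2 fold change 0.09, SE 0.11, adjusted p = 0.778). Aif1 ranged from 0.956 to 1.99 CPM in Ctrl and from 1.82 to 2.47 CPM in cKO mice, on 13 to 31 counts per library (log2 fold change 0.49, SE 0.24, adjusted p = 0.416).

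In all, 0 of the 8 genes were called at P24 by edgeR, where 1.72% of all genes tested were called and 1.26% were called higher. Only Cd68 had an unadjusted p under 0.05, and DESeq2 called 0 of the 8. The median log2 fold change was -0.02 over the 4 homeostatic genes and 0.38 over the 4 activation-linked genes, against 0.00054 over all genes tested. Markers of border macrophages, which also express Cd68 and Csf1r, were not higher in the cKO libraries. Their 7 genes summed to 15.6 to 23.0 CPM in Ctrl and 9.78 to 16.6 CPM in cKO mice, 0 of the 5 tested were called, and all 5 had a negative log2 fold change.

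At P17, 0 of the 8 genes were called by edgeR, with 0 at an unadjusted p under 0.05 and 0 called by DESeq2. The background was low there as well, at 0.0943% of genes tested. With the replicate number as a block, which the P17 libraries support, 109 genes in place of 20 were called, and none of the 8 was among them. Cd68 was 7.54, 9.25, 6.65 and 8.87 CPM in Ctrl mice and 6.83, 7.76, 7.44 and 8.76 CPM in cKO mice. The cKO range lay inside the Ctrl range, with a log2 fold change of -0.07 (SE 0.14, adjusted p = 1).

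Trem2 was 6.05, 7.22, 7.42 and 7.73 CPM in P17 Ctrl mice and 6.28, 6.12, 4.42 and 6.26 CPM in cKO mice. Only the lowest Ctrl mouse fell among the cKO values, and the log2 fold change was -0.29 (SE 0.15, adjusted p = 1, unadjusted p = 0.071). P2ry12 spread less among the P17 cKO mice, 35.2 to 36.2 CPM, than among Ctrl mice, 29.1 to 35.7 CPM, and its log2 fold change was 0.11 (SE 0.07). The homeostatic genes at P17 had 95% intervals between 0.903-fold and 1.35-fold.

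Whether the genotype effect differed between the ages was tested as an interaction over the 16 bulk libraries, and 0 of the 8 genes were called by edgeR against 0.0470% of all genes. DESeq2 also called 0. The share of all genes at an unadjusted p under 0.05 was not computed, and of the 8 genes 3 were under that threshold. Those were Cd68, with an interaction of 0.60 on the log2 scale (SE 0.27, adjusted p = 0.76), Trem2 with 0.39 (SE 0.17, adjusted p = 0.759) and P2ry12 with -0.22 (SE 0.10, adjusted p = 0.744). In Ctrl cortex alone, 0 of the 8 genes differed between P24 and P17 by edgeR or DESeq2, with 0 at an unadjusted p under 0.05, where 19.6% of all genes were called. The 4 homeostatic genes had log2 fold changes between -0.03 and 0.03 from P17 to P24, and the 4 activation-linked genes between -0.35 and -0.13. Tyrobp was the closest to the threshold (log2 fold change -0.33, SE 0.18, adjusted p = 0.213). Without P24 Ctrl replicate 4 its log2 fold change was -0.53 with an adjusted p of 0.0358. The ages were separate tables, and age and sequencing batch cannot be told apart.

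TRAP-Seq addressed how much microglia RNA was carried into RNA isolated with astrocyte ribosomes. All 8 genes were lower in IP than in Input libraries of Ctrl mice, and none was absent from the IP. With 71.0% of all genes called in this comparison and 35.7% called lower, a single call carries little, and the sizes of the ratios are more informative. Tmem119 was 3.80, 5.79 and 3.45 CPM in the 3 Ctrl Input libraries and 0.866, 0.869 and 0.508 CPM in the IP libraries of the same mice. The ranges did not overlap, as for 37.2% of all genes in that direction, and the ratio of IP to Input was the smallest of the 8 (log2 fold change -2.54, SE 0.29, adjusted p = 8.39e-06).

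**Figure D2:**
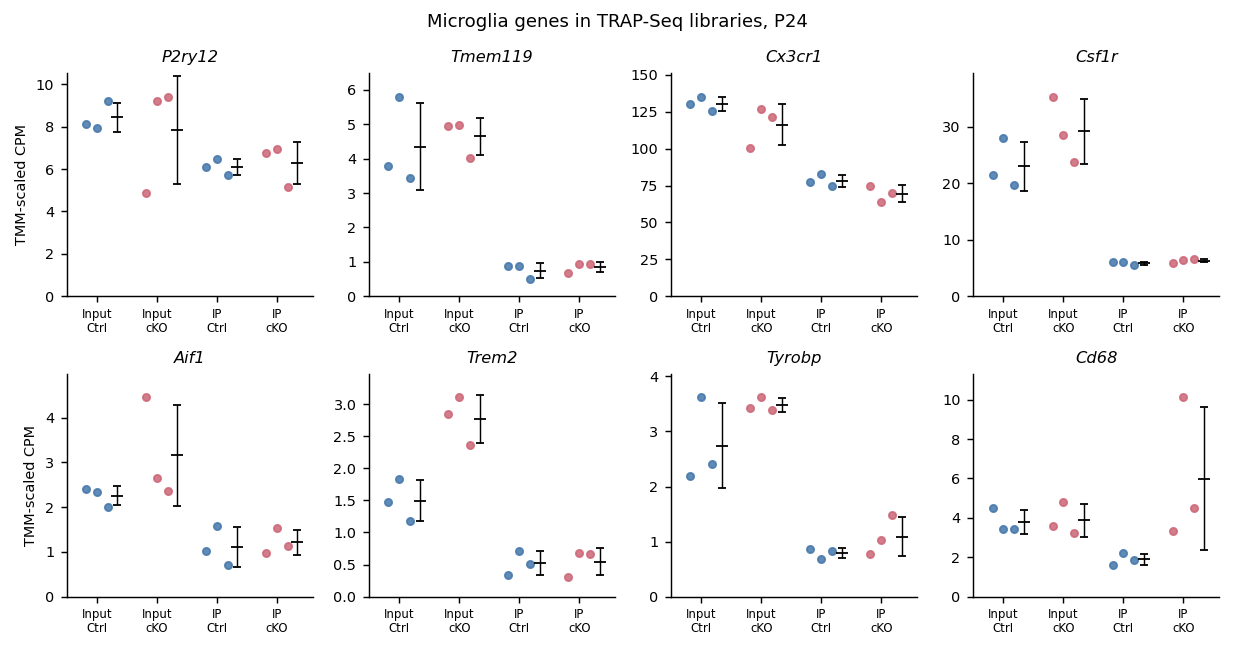
TMM-scaled CPM of each microglia gene (vertical axis, from 0) in the TRAP-Seq Input and IP libraries at P24, with 1 point per mouse, Ctrl in blue and cKO in red, and the mean ± SD in black (n = 3). All genes were lower in IP than in Input in Ctrl mice, and Cd68 in the IP was 3.33 to 10.1 CPM in cKO against 1.62 to 2.19 CPM in Ctrl mice.

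Cx3cr1 kept a larger share of its Input level in the IP than Tmem119 did. It was 130.2, 135 and 126 CPM in Ctrl Input and 77.4, 82.8 and 74.4 CPM in Ctrl IP libraries. Its log2 ratio of IP to Input was -0.75, -0.70 and -0.76 in the 3 Ctrl mice, the narrowest spread of the 8 genes. P2ry12 was 8.15, 7.96 and 9.20 CPM in Ctrl Input and 6.10, 6.498 and 5.70 CPM in IP libraries, a mean log2 ratio of -0.47 ± 0.20 (SD, n = 3) and the highest of the 8.

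The other genes lay between these extremes in Ctrl mice. Mean log2 ratios were -1.96 ± 0.22 for Csf1r, -1.76 ± 0.56 for Tyrobp and -1.55 ± 0.48 for Trem2. They were -1.10 ± 0.49 for Aif1 and -1.002 ± 0.42 for Cd68. Read as shares of the Input level, the 8 genes therefore kept between 17.3% (Tmem119) and 72.4% (P2ry12) of their CPM in the IP. Of the genes whose exons overlap those of another gene, P2ry12 kept 72.4%, Cx3cr1 60% and Csf1r 25.7%. How many of those reads came from the overlapping genes was not tested. Trem2 in the IP rested on 7 to 19 counts and Tmem119 on 13 to 24 counts per library, which limits the precision of both.

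Neuron, oligodendrocyte and endothelial markers were depleted in the IP as well. The median log2 ratio in Ctrl mice was -1.35 over the 4 homeostatic genes and -1.32 over the 4 activation-linked genes. It was -1.77 over 8 neuron markers, -0.885 over 6 oligodendrocyte markers and -1.05 over 4 endothelial markers, against 3.70 over 8 astrocyte markers. Markers of oligodendrocyte precursors had -0.951 over 2 genes. Pericyte markers were not depleted as a list, with 0.385 over 2 genes, Pdgfrb at 0.98 and Rgs5 at -0.21. No test of these medians against each other was made. CPM are relative to each library's total, and the median gene had a log2 fold change of -0.03 between IP and Input.

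**Figure D3:**
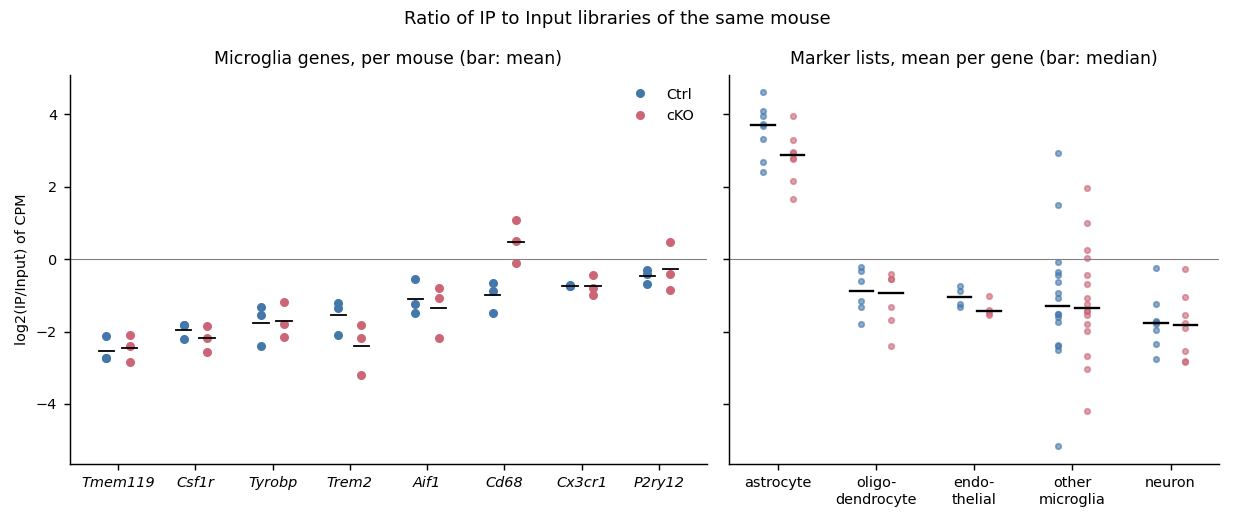
Left, log2 ratio of IP to Input CPM of each microglia gene in each mouse (points, n = 3 per genotype) with the mean as a bar. Right, mean log2 ratios of single genes in 5 marker lists with the median as a bar, from 3.70 for astrocyte genes to -1.77 for neuron genes in Ctrl mice, and Ctrl in blue and cKO in red throughout.

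In cKO mice, 6 of the 8 genes were lower in IP than in Input by edgeR, where 56.3% of genes were called and 28.5% were called lower. Cx3cr1 had the same mean log2 ratio as in Ctrl mice, -0.74 ± 0.29 (n = 3), and Tmem119 had -2.44 ± 0.37. P2ry12 was not called (log2 fold change -0.34, SE 0.28, adjusted p = 0.328). Its Input level in cKO replicate 1, 4.89 CPM, was well under the 9.20 and 9.40 CPM of the other cKO mice, and without that library the log2 fold change was -0.58 with an adjusted p of 0.0112. Cd68 was the other gene not called, with a log2 fold change of 0.61 (SE 0.40, adjusted p = 0.22), and its per-mouse log2 ratios were -0.11, 1.07 and 0.49.

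Cd68 was also the one gene of the 8 called between genotypes in any experiment. In the IP it was 1.62, 2.19 and 1.88 CPM in Ctrl mice and 3.33, 10.1 and 4.50 CPM in cKO mice. The groups did not overlap, as for 19.0% of all genes in that direction, and the log2 fold change was 1.66 (SE 0.36, 95% interval 1.82-fold to 5.46-fold, adjusted p = 0.00887). In this comparison 20.0% of all genes were called and 11.6% were called higher, so that 1 call among 8 genes is near the background. Replicate 2 was the highest cKO mouse, and without it the log2 fold change was 1.07 with an adjusted p of 0.019.

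The Input libraries of the same mice showed no such difference in Cd68. They held 4.52, 3.45 and 3.45 CPM in Ctrl and 3.60, 4.81 and 3.22 CPM in cKO mice, ranges that overlapped almost fully (log2 fold change 0.02, SE 0.23, adjusted p = 0.984). The difference between the fractions was tested as an interaction of fraction and genotype, which gave 1.63 for Cd68 on the log2 scale (SE 0.48, unadjusted p = 0.00451, adjusted p = 0.272). DESeq2 called 0 of the 8 genes in this test, edgeR called 0 against 0.0582% of all genes, and Cd68 alone had an unadjusted p under 0.05. With no filter on low counts the interaction of Cd68 was 1.59 with an adjusted p of 0.0383. With any 1 library left out, edgeR called 0 of the 8 in this test, also without Input cKO replicate 1. The IP difference in Cd68 is thus called on its own, and its difference from the Input is not.

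None of the other 7 genes passed the test between genotypes in the IP. Log2 fold changes were -0.16 (SE 0.10) for Cx3cr1, 0.05 (SE 0.16) for P2ry12, 0.19 (SE 0.32) for Tmem119 and 0.12 (SE 0.14) for Csf1r. They were 0.48 (SE 0.32) for Tyrobp, 0.14 (SE 0.33) for Aif1 and 0.07 (SE 0.43) for Trem2. The 95% interval for Trem2 ran from 0.546-fold to 2.02-fold, so that a difference of that size was not detectable at its depth.

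Markers of macrophages other than microglia were present in the IP beside Cd68. The 7 border macrophage genes summed to 3.83 to 6.31 CPM in Ctrl and 6.13 to 8.96 CPM in cKO IP libraries, 0 of the 2 tested were called, and Ms4a7 was at 0 to 2 counts. Most of that sum was Cd163, with 2.42 to 4.42 CPM in Ctrl and 4.85 to 6.14 CPM in cKO mice (log2 fold change 0.63, SE 0.22, adjusted p = 0.0626), and it was called higher without Ctrl replicate 2. The 8 blood leukocyte markers summed to 0.39 to 0.90 CPM in Ctrl and 0.64 to 1.21 CPM in cKO IP libraries. Of these, the T cell gene Cd3e and the cytotoxic cell gene Nkg7 were at 0 in all Ctrl IP libraries and at most 1 count in cKO. Ly6c2 had log2 ratios of IP to Input of -1.36, 1.22 and -1.16 in the cKO mice, and its counts were too low for a test between genotypes in the IP. Whether border macrophages took part in the Cd68 difference was not tested.

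In the Input, 0 of the 8 genes were called by edgeR or by DESeq2, against 0.109% of all genes. With any 1 Input library left out, edgeR again called 0 of the 8, also without cKO replicate 1, the library furthest from its group. Trem2 was 1.48, 1.84 and 1.18 CPM in Ctrl and 2.85, 3.11 and 2.37 CPM in cKO mice, on 23 to 73 counts. The 3 cKO values were all higher than the 3 Ctrl values, as for 6.59% of all genes in that direction. The log2 fold change was 0.89 (SE 0.26, 95% interval 1.24-fold to 2.77-fold), with an unadjusted p of 0.00747, the only one of the 8 under 0.05, and an adjusted p of 0.733. In P24 bulk cortex, where Trem2 had 74 to 100 counts per library, its 95% interval was 0.909-fold to 1.25-fold. The remaining Input log2 fold changes lay between -0.16 for Cx3cr1 and 0.48 for Aif1.

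**Figure D4:**
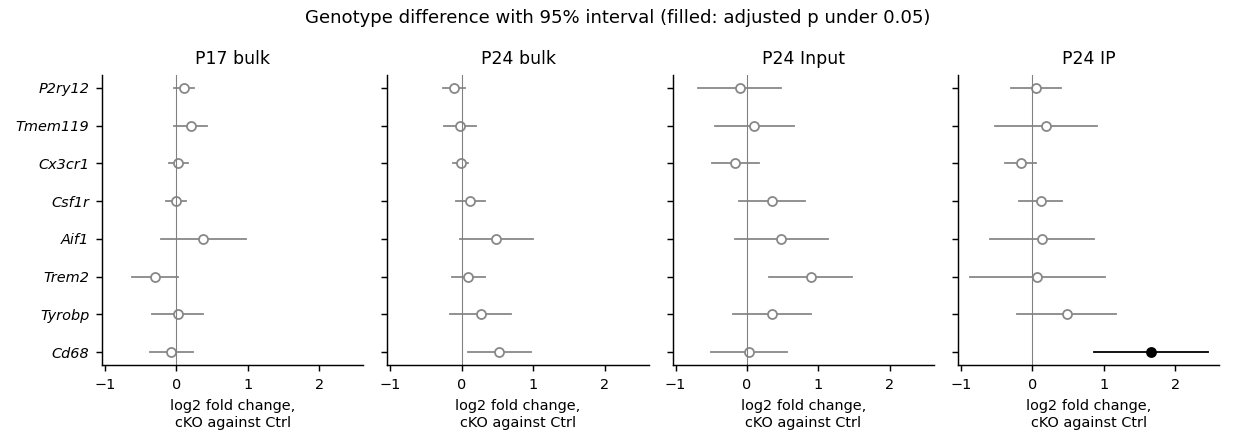
Log2 fold change of cKO against Ctrl (horizontal axis) for each microglia gene in P17 bulk, P24 bulk, P24 Input and P24 IP libraries, with lines for the 95% interval from edgeR. The filled point marks the only difference with an adjusted p under 0.05, Cd68 in the IP at 1.66.

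Other genes of the homeostatic program were also not called in bulk cortex. None of 16 such genes was called at P24 by edgeR or DESeq2, and their median log2 fold change was 0.01. The share of all genes at an unadjusted p under 0.05 was not computed, and of the 16 genes 6 were under that threshold. Among those 6, Ctss (0.39, SE 0.15), Itgam (0.40, SE 0.16), P2ry6 (0.37, SE 0.14) and Fcrls (0.27, SE 0.11) had positive log2 fold changes, and Selplg (-0.26, SE 0.08) and Mertk (-0.20, SE 0.08) negative ones. Without P24 cKO replicate 1, Ctss and Itgam were called higher, and so were the complement genes C1qa, C1qb and C1qc. Leaving out any other 1 library gave 0 calls in the homeostatic list. Further lists held 6 lineage transcription factors, including Spi1 and Irf8, and 8 genes listed with Trem2 and Tyrobp signaling, such as Syk and Plcg2. Of these, 0 were called at P24 by edgeR and 0 by DESeq2, with 1 of each list at an unadjusted p under 0.05. At P17, 0 genes of these 3 lists were called by either tool. Itgb2, of the signaling list, alone had an unadjusted p under 0.05.

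The ligands of the microglia receptors were not called in bulk cortex at P24 by edgeR, with 2 of 6 at an unadjusted p under 0.05 and 1 called by DESeq2. Cx3cl1, the neuronal ligand of Cx3cr1, had a log2 fold change of -0.16 (SE 0.04, adjusted p = 0.121) and Csf1 one of 0.29 (SE 0.11, adjusted p = 0.263). Il34, the other Csf1r ligand, was 43.1 ± 1.26 CPM in Ctrl and 43.2 ± 2.51 CPM in cKO mice (SD, n = 4). In the IP, where 20.0% of all genes were called, 1 of the 6 ligands was lower, Cx3cl1 with a log2 fold change of -0.38 (SE 0.10, adjusted p = 0.0197). The call was lost without Ctrl replicate 1, Ctrl replicate 2 or cKO replicate 2, and Il34 was called higher without cKO replicate 1. Of 8 neuron markers, Syp (-0.43, SE 0.09) and Tubb3 (-0.58, SE 0.11) were lower in the same fit, and their part in the Cx3cl1 difference was not tested.

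Some genes of a list tied to microglial activation, many of which other cell types also express, changed at P24, although the activation-linked members were not called in bulk. Of 27 genes on that list 20 were tested in bulk cortex, 6 rose, with Lgals3 among them, and 0 fell, against 1.26% of all genes called higher. The median log2 fold change was 0.26. The list was chosen with earlier results of these data known, so that its counts and median describe the genes listed and do not test a direction. Lgals3, encoding galectin-3, went from 0.442 ± 0.18 CPM in Ctrl to 19.3 ± 11.7 CPM in cKO mice (n = 4; log2 fold change 5.41, SE 0.76, adjusted p = 0.0032). It had 3 to 9 counts per Ctrl library, under the minimum count, and 38 to 381 per cKO library, so it entered the test only through the cKO libraries, where it is high, and its call is not evidence of the list's direction. Gpnmb, a lysosomal glycoprotein, rose from 3.43 ± 0.51 to 49.2 ± 19.7 CPM (log2 fold change 3.83, SE 0.34, adjusted p = 0.000133). The tetraspanin genes Cd9 (1.52, SE 0.21) and Cd63 (0.90, SE 0.15) and the cathepsin genes Ctsd (0.32, SE 0.07) and Ctsb (0.26, SE 0.05) rose as well. Without cKO replicate 1, 7 of 20 rose, and with any other 1 library left out the count was 4 or 5, which always held Lgals3, Gpnmb, Cd9 and Cd63. Astrocyte markers moved in the same bulk fit, where 3 of 8 rose and 3 fell. Gfap, the astrocyte intermediate filament gene, rose (2.51, SE 0.11, adjusted p = 2.18e-07), as did the water channel gene Aqp4 (1.25, SE 0.16) and Aldh1l1 (1.18, SE 0.13), while Slc1a2, Slc1a3 and S100b fell. The 8 summed to 3741 to 4380 CPM in Ctrl and 4054 to 4212 CPM in cKO mice. Which cells the change in the activation list came from was not tested.

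In Ctrl mice, 9 of 19 tested genes of the activation list were higher in IP than in Input, and 5 were lower. Of all genes, 71.0% were called in this comparison and 35.7% were called lower. Cd63 had a log2 fold change of 3.48 (SE 0.18) and Cd9 of 2.45 (SE 0.17), each opposite in sign to all 8 microglia identity genes. Lgals3 had 3.55 (SE 0.41), but with 2 to 4 counts per Ctrl Input library it entered that test only through the IP libraries. Its sign was set by that, and its call is not evidence of a contrast. Gpnmb was not called (0.58, SE 0.26, adjusted p = 0.069). Between genotypes in the IP, 7 of 18 tested genes of the list rose and 0 fell, where 20.0% of all genes were called and 11.6% were called higher. Among them Lgals3 went from 1.80 ± 0.51 to 68.9 ± 27.2 CPM and Gpnmb from 1.28 ± 0.13 to 44.0 ± 16.7 CPM (n = 3), and Cd14, a lipopolysaccharide co-receptor, had a log2 fold change of 1.55 (SE 0.28, adjusted p = 0.00331). With 1 IP library left out, 4 to 9 genes of the list rose, the 4 without Ctrl replicate 1 or cKO replicate 2. In the Input, where 0.109% of all genes were called, Lgals3 (5.46, SE 0.40) and Cd9 (1.46, SE 0.17) rose, and 18 of 20 tested genes were not called. Lgals3 had 2 to 4 counts per Ctrl library and entered this test only through the cKO libraries, where it is high. With 1 Input library left out, 0 were called without Ctrl replicate 3, 4 without cKO replicate 1 and 1 or 2 without any other. At P17, 0 of 18 tested genes were called by edgeR or DESeq2, and 5 had an unadjusted p under 0.05.

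**Figure D5:**
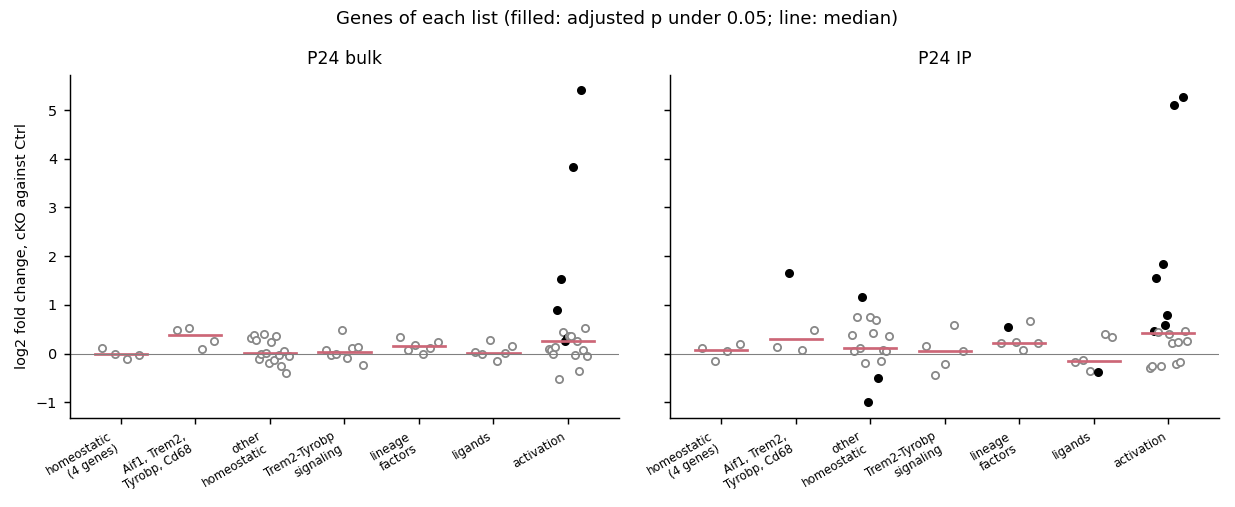
Log2 fold change of cKO against Ctrl (vertical axis) for the genes of 7 lists in P24 bulk cortex (left) and the P24 IP (right), with 1 point per gene tested, filled where the adjusted p is under 0.05, and the list median as a line. Gpnmb stands at 3.83 in bulk cortex and Lgals3, which entered that test only through the cKO libraries, at 5.41. All 8 microglia identity genes lie between -0.11 and 0.53 there.

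Beyond the 8 genes, 2 of 15 tested homeostatic genes fell in the IP of cKO mice, Mertk, a receptor for apoptotic cells (log2 fold change -1.002, SE 0.15), and Sall1, a transcription factor (-0.49, SE 0.12). In this comparison 20.0% of all genes were called in either direction. Sall1 lost its call without Ctrl replicate 1, Ctrl replicate 2 or cKO replicate 2, and Mertk stayed called throughout. In Ctrl mice Mertk (2.93, SE 0.17) and Sall1 (1.48, SE 0.14) were the 2 genes of this list that were higher in IP than in Input. Of the 16 genes, 12 were lower, against 35.7% of all genes called lower. Among the complement genes, C1qb rose in the IP from 1.18 ± 0.15 to 2.67 ± 0.44 CPM (n = 3; log2 fold change 1.18, SE 0.23, adjusted p = 0.00501). In bulk cortex the log2 fold changes of C1qa, C1qb and C1qc were 0.47 (SE 0.13), 0.42 (SE 0.11) and 0.40 (SE 0.13), with adjusted p between 0.099 and 0.191 by edgeR.

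The 8 genes varied together only loosely among mice. After the group means were removed, Pearson correlations of log2 CPM over the 16 bulk libraries ranged from -0.364 to 0.696 across the 28 pairs, with a median of 0.268, and 25 were positive. These libraries share the scaling and depth of their table, and the values are descriptions. Some of the genes rested on few counts, with 13 to 31 per P24 library for Aif1. How far counting noise lowered the correlations was not tested. P24 cKO replicate 1 had the lowest average standardized residual of the 8 genes, -1.37, and P24 cKO replicate 2 the highest, 0.952.

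Of 18342 other genes ranked by likeness to that average over the 16 libraries, the highest were Gm6392 (r = 0.951), Cd63-ps (0.931), Lgals3bp (0.914), Gm5873 (0.913) and Ctss (0.913). S100a16 (0.904), Hsbp1 (0.902), Ctsl (0.895), Gm6170 (0.893) and Ctnnb1 (0.892) followed. Ctss, a cathepsin made by microglia, had 0.90 within P24 and 0.945 within P17. High values were not limited to microglia genes. The astrocyte markers Gfap and Aqp4 had an r of 0.855 and 0.723, and the widely expressed genes H2-D1, B2m and Cd63 had 0.888, 0.872 and 0.852. The homeostatic genes outside the 8 ranged from -0.668 for Mertk to 0.913 for Ctss, with -0.0463 for Gpr34 and -0.191 for P2ry13. Gm6392 and Cd63-ps are gene models with names of predicted or pseudogene loci, for which reads may be shared with near-identical copies. Of the lineage factors, Spi1 had an r of 0.114 and Irf8 of 0.402.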

How the data were processed

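The deposited files hold raw counts per Ensembl gene, which the authors made from reads mapped to mm10 with RNA STAR in Galaxy; the counting tool, its strand setting and the annotation are not given in the sources used here. Gene symbols, positions and lengths came from the GENCODE annotation of GRCm38. The members and gene lists were chosen with earlier results of these data known. Differences were tested with the edgeR 4.0.16 quasi-likelihood test in R 4.3.3 on all genes that passed filterByExpr (minimum count 10), with TMM scaling and Benjamini-Hochberg adjustment, and an adjusted p under 0.05 was called. Each comparison was fitted on its own libraries, and standard errors were taken from the log2 fold change and its F statistic. Counts at an unadjusted p under 0.05 are given without the share of all genes at that threshold, and describe only the genes listed. DESeq2 1.42.0, other scalings, no filter, a replicate block and leaving out each library were tried as alternatives. The scripts were tested on simulated counts. Ratios of IP to Input used the libraries of the same mouse.

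Libraries were separate mice. Same-numbered Ctrl and cKO libraries deviated together at P17 (correlations 0.231 to 0.534) and in the IP (0.122 to 0.300), but not in every pair of P24 bulk or Input libraries. The IP and Input libraries of a mouse are paired by design. In each comparison the genes named from a list were those called, at most the 4 with the largest change, and the members throughout; any other list genes named were chosen after their values were seen. The age of a bulk table was taken from the table's name. The targeted gene and 1 other gene are not reported here.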

Additional observations from a re-analysis of the deposited data

Results flagged for a closer look

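In 3 of the 32 sets of 4 bulk libraries (8 genes in 4 groups), 1 mouse stood apart from the others of its group by Dixon's test, which flags about 1 in 20 such sets by chance. Tmem119 was 12.8 CPM in P24 Ctrl replicate 3, under the 14.2 to 14.4 CPM of the other Ctrl mice. Trem2 was 4.42 CPM in P17 cKO replicate 3, where the others had 6.12 to 6.28 CPM. Tyrobp was 4.05 CPM in P24 cKO replicate 1, where the others had 6.22 to 6.60 CPM, and this mouse was also the lowest of its group for P2ry12, Cx3cr1, Csf1r, Aif1, Trem2 and Cd68.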

How the results depend on the processing

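Of 966 values of the 8 genes under alternatives, 914 kept their direction and their side of the threshold, 4 passed it and 48 changed sign, none of them called. Genes called at P24 were 598 with DESeq2, 618 with no filter and 216 to 950 with 1 library left out, against 388. At P17 they were 41, 55 and 11 to 19, against 20, and 109 with the replicate block. In the Input they were 127, 112 and 4 to 112, against 26, and 8 with the block. In the IP they were 2633 to 4810 with 1 library left out, against 4782. The fraction by genotype interaction gave 284, 189 and 3 to 432, against 15, and 6 with the block. The age by genotype interaction gave 54, 62 and 4 to 149, against 11, and 55 with the block. The cause of these changes was not tested.

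Of the 8 genes, 1 was called in the fraction by genotype interaction with no filter (Cd68), 0 to 1 at P24 (Cd68), 0 to 1 between ages (Tyrobp) and 6 to 7 between IP and Input in cKO mice (P2ry12) with 1 library left out. Cd68 in the IP stayed called under every alternative, with log2 fold changes of 1.07 to 1.98 and adjusted p of 1.33e-07 to 0.0333. Neither the replicate block nor DESeq2 changed a call among the 8.

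Log2 values that changed sign had ranges, with 1 library left out, of -0.0256 to 0.0035 (Cx3cr1) and -0.078 to 0.0587 (Tmem119) at P24. At P17 they were -0.0717 to 0.117 (Tyrobp), -0.148 to 0.0049 (Cd68) and -0.0342 to 0.0354 (Csf1r). In the IP they were -0.17 to 0.39 (Trem2), -0.0157 to 0.36 (Tmem119), -0.10 to 0.49 (Aif1) and -0.012 to 0.17 (P2ry12), and in the Input -0.16 to 0.18 (Cd68), -0.0364 to 0.36 (Tmem119) and -0.26 to 0.14 (P2ry12). For fraction by genotype they were -0.19 to 0.21 (Tmem119), -0.17 to 0.31 (Tyrobp), -0.10 to 0.0512 (Cx3cr1), -0.10 to 0.30 (P2ry12) and -0.61 to 0.0099 (Aif1), and for age by genotype -0.10 to 0.30 (Aif1). Between ages they were -0.0882 to 0.0262 (Csf1r), -0.0812 to 0.0068 (P2ry12), -0.0354 to 0.0637 (Tmem119) and -0.0493 to 0.0176 (Cx3cr1). With library size alone, P2ry12 (-0.0626) and Trem2 (-0.0457) in the IP, Cd68 in the Input (-0.0102) and Tmem119 between ages (-0.005) changed sign.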

Other observations

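Levels in the Input libraries differed from those of P24 bulk cortex by gene, although both are Ctrl cortex at the same age. Cx3cr1 was 130.3 ± 4.57 CPM in Input (SD, n = 3) and 120.3 ± 3.57 CPM in bulk (n = 4), P2ry12 8.44 ± 0.67 and 31.8 ± 2.21 CPM, Csf1r 23.0 ± 4.36 and 85.4 ± 7.87 CPM, and Trem2 1.499 ± 0.33 and 6.10 ± 0.44 CPM. These are separate tables from different preparations, set side by side with no test.

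In Ctrl cortex, several microglia genes outside the 8 differed between P24 and P17. Laptm5 (log2 fold change 0.67, SE 0.10), Tgfbr1 (0.31, SE 0.10) and Mertk (0.24, SE 0.07) were higher at P24 and Fcrls (-0.37, SE 0.12) was lower by edgeR. The antigen presentation genes B2m (0.86, SE 0.09), H2-D1 (0.79, SE 0.16) and H2-K1 (1.18, SE 0.23) were higher at P24. Age and sequencing batch cannot be told apart here.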
